A study of Mus musculus with 10 samples.

Results

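Metallothioneins and the genes that sense and move zinc were followed through 10 RNA sequencing libraries of the mouse aorta, the large artery fed by the heart. The genes are 7 of the 35667 in the count tables: the metallothioneins Mt1, Mt2 and Mt3, the transcription factor Mtf1, the zinc exporter Slc30a1 and the zinc importers Slc39a14 and Slc39a10. They were chosen by name, with their difference between the groups already known, so their values are given as a description. No p-value is given for them, and how many passed the threshold is stated only beside the share of all genes that did. After the filter on low counts 6 of the 7 genes could be fitted, and Mt2 could not. Mt1 was lower in every library labelled KO than in any labelled WT, Mt2 had almost no counts, and the values of the other 5 genes overlapped between the groups.

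The study set 5 libraries labelled knockout (KO) against 5 labelled wild type (WT), all from C57BL/6 mice aged 12 weeks. The titles call the KO libraries knockouts of Ovgp1, which encodes oviductal glycoprotein 1. In the genotype field only KO replicate 1 carries that name: replicate 2 is given as Ovgp2, replicate 3 as Ovgp3, replicate 4 as Ovgp4 and replicate 5 as Ovgp5. No allele, promoter or deleted exon is given, no other treatment is named, and no label says that the libraries came from separate animals, so errors measure only the spread between these libraries.

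Metallothioneins are small cysteine-rich proteins that bind zinc, copper and cadmium in the cytosol. When free zinc rises, the zinc finger protein MTF1 enters the nucleus and binds metal response elements, short promoter motifs, in front of the metallothionein genes and Slc30a1. Glucocorticoids and interleukin 6 are also known inducers of Mt1 and Mt2. Transporters of the Slc30a (ZnT) family move zinc out of the cytosol, and those of the Slc39a (ZIP) family move it in.

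The promoters of the genes are shown because metal response elements are the known link between MTF1 and its targets. RefSeq (GRCm38.p6) gave a window of 300 bases, 250 before to 50 after the start, for 6 of the 7 genes. Slc39a14 is only named. The core of the element was searched as TGCACNC and TGCGCNC on both strands. Mt2 had 4 matches, Mt1 3, Slc30a1 2 and Mt3 1, and none was found in the window of Mtf1 or in either window of Slc39a10. Of all 32817 RefSeq windows of that length, 25.7% held at least 1 match, 7.12% at least 2, 1.97% at least 3 and 0.518% at least 4. The stretches printed run from 250 to 16 bases before the RefSeq start, in the direction of the gene and on the plus strand, with matches in capitals. They lie at chr8:94178839-94179073 for Mt1, chr8:94172368-94172602 for Mt2 and chr1:191906531-191906765 for Slc30a1.
Mt1: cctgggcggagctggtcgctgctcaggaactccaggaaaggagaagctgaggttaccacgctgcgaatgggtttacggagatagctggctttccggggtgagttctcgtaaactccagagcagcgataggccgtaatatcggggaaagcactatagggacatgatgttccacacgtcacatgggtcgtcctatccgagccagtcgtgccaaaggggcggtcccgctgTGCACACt
Mt2: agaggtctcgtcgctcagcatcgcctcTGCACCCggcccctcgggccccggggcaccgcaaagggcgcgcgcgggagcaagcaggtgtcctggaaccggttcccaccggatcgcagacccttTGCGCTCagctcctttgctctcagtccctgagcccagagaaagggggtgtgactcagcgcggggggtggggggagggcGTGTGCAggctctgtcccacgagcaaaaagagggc
Slc30a1: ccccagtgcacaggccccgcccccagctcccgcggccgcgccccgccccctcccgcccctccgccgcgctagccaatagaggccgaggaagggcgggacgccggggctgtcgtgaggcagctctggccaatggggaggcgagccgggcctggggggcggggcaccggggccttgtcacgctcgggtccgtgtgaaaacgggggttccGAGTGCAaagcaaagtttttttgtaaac
In Mt2 the 3 printed matches begin 223, 128 and 50 bases before the start. In Mt1 the printed match begins 23 bases before it, and 2 more lie in the first bases after it, at positions 3 and 21. Of the 3 Mt1 transcripts in GENCODE M21, 2 begin later, 122 and 152 bases after the RefSeq start, so those 2 matches also lie before them. The window ends 50 bases after the RefSeq start, so the bases just before these later starts were not searched. The Mt2 transcripts begin 46 and 242 bases after the RefSeq start. The numbers of matches are therefore not counts over like stretches of promoter. A glucocorticoid element, searched as AGAACA and TGTTCT with 3 free bases between, was found in none of the windows of these genes and in 0.00914% of all windows. This exact form is so rare that its absence here says nothing about glucocorticoid sites. The motif TTCNNNGAA, bound by STAT factors, occurred once, in 1 of the 2 windows of Slc39a10, and in 8.29% of all windows. A match of letters is not a measured site of binding.

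The libraries held 24434745 to 26694590 counts where labelled KO and 21242030 to 24396394 where labelled WT. Ovgp1, the gene named in the titles, was higher in the libraries labelled KO. It had 480 to 549 counts in each of them and 48 to 101 in those labelled WT, and since the label is not borne out by this gene, every direction here follows the label alone. The KO libraries were close to copies of each other. A chi-square of the counts, divided by its degrees of freedom so that counting error alone gives 1, was 1.77 to 3.25 for pairs of KO libraries and 11.03 to 154 for pairs of WT libraries. The comparisons are therefore also given with the KO counts summed into 1 sample, which takes the spread from the WT libraries. WT replicates 1 and 3 also stood apart, with 16.2% and 13.2% of counts on mitochondrial genes, against 6.75% to 9.59% in the other WT libraries and 7.61% to 7.88% in KO. Aortic smooth muscle markers, such as Myh11 and Acta2, summed to 35070 to 35736 CPM in KO and 25210 to 38742 CPM in WT. CPM are counts scaled to a common library size with TMM factors. In such bulk tissue, fewer cells of a type and less RNA per cell cannot be told apart.

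Mt1 (ENSMUSG00000031765; GRCm38 chromosome 8, 94179082 to 94180327, plus strand), the widely expressed metallothionein, was lower in every library labelled KO than in any labelled WT. It had 5901, 6171, 6288, 6443 and 6291 counts in KO replicates 1 to 5. In WT replicates 1 to 5 it had 7995, 44253, 6771, 29721 and 24343 counts. The groups did not overlap, and within WT replicates 1 and 3 were far below the others. In CPM, Mt1 was 234 ± 1.74 (SD, n = 5) in KO and 989 ± 653 (SD, n = 5) in WT. The single WT libraries read 362, 1892, 338, 1224 and 1130 CPM. These are 1.55, 8.08, 1.44, 5.22 and 4.83 times the KO mean, so the size of the difference depended on which WT library was taken. The log2 difference, KO minus WT, was -2.08 (SE 0.44), a level 4.22 times higher in WT with a 95% interval of 2.16 to 8.26. With the KO counts summed into 1 sample the interval ran from 0.75 to 23.8. Without WT replicates 1 and 3 the log2 difference was -2.58.

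The spread of Mt1 was at opposite ends in the groups. Its SD of log2 CPM was 1.12 among the WT libraries, larger than that of 98.5% of tested genes. Among the KO libraries it was 0.011, larger than that of only 0.592% of tested genes. The median SD over all tested genes was 0.22 in WT and 0.081 in KO. The KO counts of Mt1 varied by no more than counting error, with a chi-square per degree of freedom of 0.344, against 9339 in WT.

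**Figure D1:**
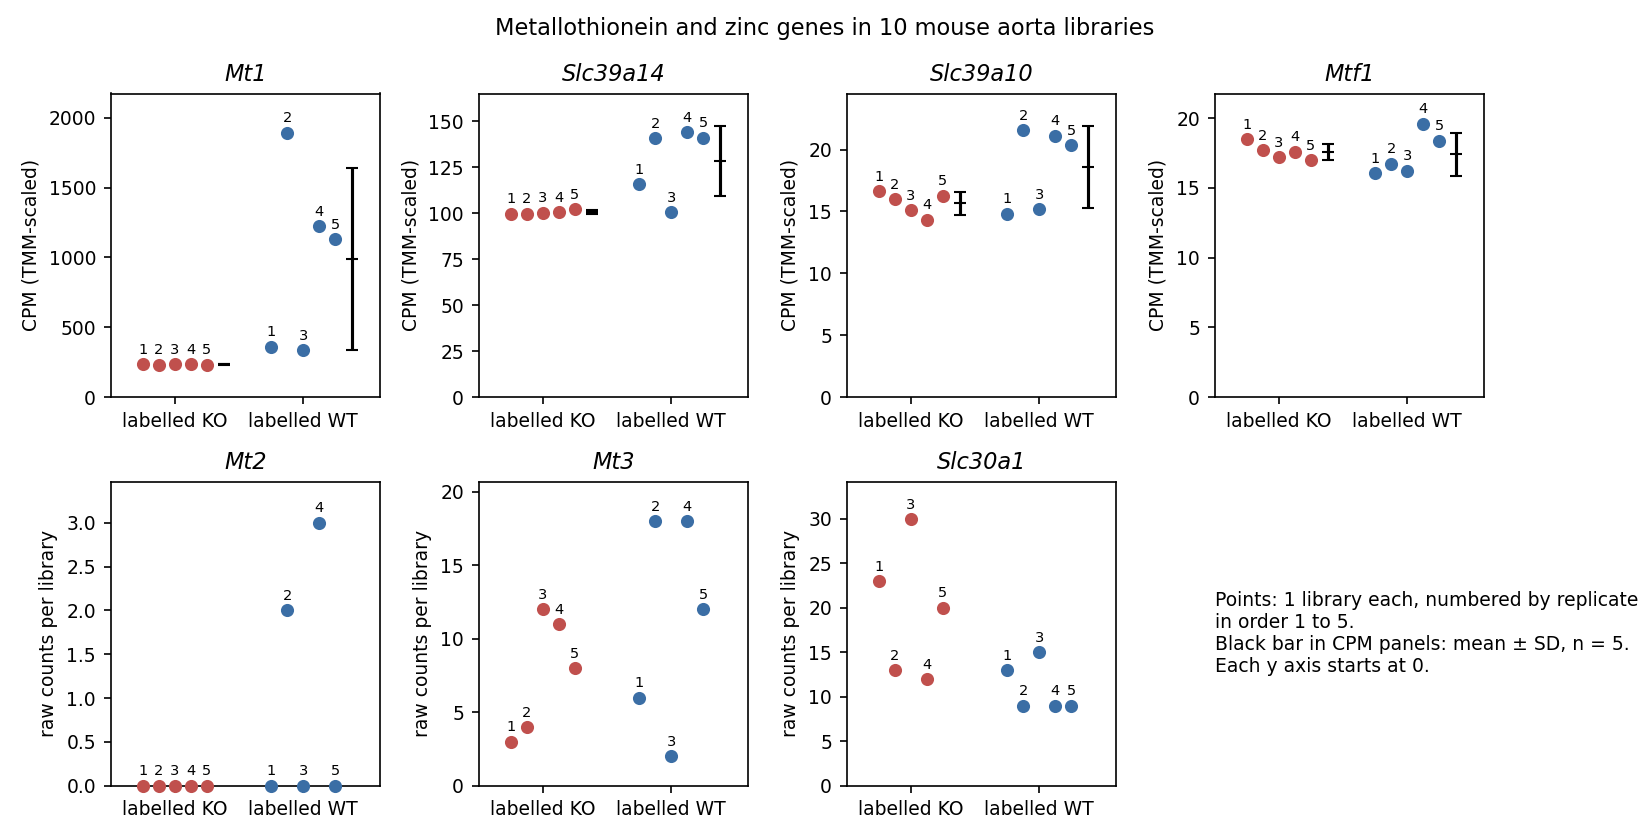
Values of the 7 genes in each library (points, numbered by replicate): CPM for Mt1, Slc39a14, Slc39a10 and Mtf1, with mean and SD (n = 5) as black bars, and raw counts for Mt2, Mt3 and Slc30a1, which had at most 30 counts in any library. The 5 KO points of Mt1 lie on each other at about 234 CPM, while the WT points run from 338 to 1892 CPM.

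Mt2 (ENSMUSG00000031762; chromosome 8, 94172664 to 94173568, plus strand), the neighbour of Mt1 that metals and glucocorticoids are known to induce along with it, was listed at or near 0. It had 0 counts in 8 libraries, 2 in WT replicate 2 and 3 in WT replicate 4. The libraries with any count were those with the highest Mt1. A count of 0 allows up to 3 counts, or 0.110 to 0.150 CPM at these depths. Per kilobase of exon, and with Mt2 set to 3 counts in each library, Mt1 was at least 928 times higher than Mt2 in KO replicate 1 and at least 6961 times higher in WT replicate 2. Mt2 is overlapped by the antisense gene Gm45774 (chromosome 8, 94170748 to 94173412, minus strand), whose exon covers 73.5% of the exon bases of Mt2. Of the 568 sequences of 36 bases in Mt2 transcripts, 54.6% also occur in Gm45774. Gm45774 had 4, 3, 6, 6 and 7 counts in KO and 5, 19, 2, 13 and 10 in WT, so it was low in all libraries too. In the whole annotation, 48.4% of the 345 protein-coding genes with at least 50% of their exon bases under another gene had a mean below 10 counts. Among the 13519 such genes with no overlap the share was 35.97%, and among the 5705 with an overlap above 0 and under 50% it was 17.9%. No source used here gives the strand setting or the rule for shared reads, and their part in the Mt2 counts was not tested. No direction can be read for Mt2. Mt1 shared none of its sequences of 36 bases with another gene and had no overlapping exon.

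Mt3 (ENSMUSG00000031760; chromosome 8, 94152607 to 94154146, plus strand), known as the metallothionein of the brain, was barely detected. It had 3, 4, 12, 11 and 8 counts in KO and 6, 18, 2, 18 and 12 in WT. The groups overlapped, and the WT libraries with the most Mt3 were replicates 2 and 4, followed by 5. The log2 difference was -0.79 (SE 0.50), and the 95% interval of the WT over KO ratio ran from 0.81 to 3.70, and from 0.45 to 6.61 with the KO counts summed.

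Mtf1 (ENSMUSG00000028890; chromosome 4, 124802104 to 124849800, plus strand), the zinc sensor itself, was at like levels in both groups. It had 18.5, 17.7, 17.2, 17.6 and 17.0 CPM in KO and 16.0, 16.7, 16.2, 19.6 and 18.4 CPM in WT. The KO values lay inside the WT range, and the means were 17.6 ± 0.575 and 17.4 ± 1.54 CPM (SD, n = 5 each). They differed by 0.02 on the log2 scale (SE 0.07), with a 95% interval of the KO over WT ratio from 0.91 to 1.12, and from 0.78 to 1.31 with the KO counts summed. Its sign differed under 4 of the alternatives. WT replicates 4, 5 and 2 had the most Mtf1 in WT and also the most Mt1, though WT replicate 2, with the highest Mt1 of all, had 16.7 CPM of Mtf1, below every KO library. MTF1 is known to be controlled through its location and metal binding, which counts do not measure.

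Slc30a1 (ENSMUSG00000037434; chromosome 1, 191906767 to 191913247, plus strand) encodes ZnT1, the exporter at the cell surface and a classic MTF1 target. It had 23, 13, 30, 12 and 20 counts in KO and 13, 9, 15, 9 and 9 in WT. The groups overlapped. The 3 WT libraries with the most Mt1 had 9 counts each, and no order among the WT libraries can be read from counts this low. The means were 0.742 ± 0.288 CPM in KO and 0.502 ± 0.163 CPM in WT (SD, n = 5 each), a log2 difference of 0.57 (SE 0.33), and the 95% interval of the KO over WT ratio ran from 0.91 to 2.43. The KO counts spread more than counting error allows, with a chi-square per degree of freedom of 3.01, while the WT counts did not (1.15). With the KO counts summed the interval was 0.69 to 3.15. The antisense gene 1700034H15Rik covers 8.92% of its exon bases and had 0 to 3 counts.

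Slc39a14 (ENSMUSG00000022094; chromosome 14, 70303469 to 70351425, minus strand) encodes ZIP14, an importer of zinc, manganese and iron that interleukin 6 is known to induce in liver. It had 99.6, 99.8, 100.2, 100.4 and 102 CPM in KO and 116, 141, 101, 144 and 141 CPM in WT. WT replicates 2, 4 and 5 were high, replicate 1 was lower, and replicate 3 lay among the KO libraries, so the groups overlapped through 1 library. The means were 100.5 ± 1.03 and 128 ± 19.3 CPM (SD, n = 5 each). KO minus WT came to -0.35 on the log2 scale (SE 0.09), a level 1.28 times higher in WT with a 95% interval of 1.11 to 1.46. With the KO counts summed that interval was 0.90 to 1.81.

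Slc39a10 (ENSMUSG00000025986; chromosome 1, 46807544 to 46892852, minus strand), which encodes the surface importer ZIP10, showed a similar order. It had 16.6, 16.0, 15.1, 14.3 and 16.3 CPM in KO and 14.8, 21.6, 15.2, 21.1 and 20.3 CPM in WT. WT replicates 2, 4 and 5 lay above all KO libraries, and WT replicates 1 and 3 lay among them. The log2 difference was -0.25 (SE 0.11), with a 95% interval of the WT over KO ratio from 1.00 to 1.41, and from 0.79 to 1.78 with the KO counts summed.

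Of the 6 fitted genes, 2 passed an adjusted p of 0.05 in the edgeR comparison and both were lower in KO, Mt1 and Slc39a14. In that comparison 14.3% of all 15710 tested genes passed, 1075 higher (6.84%) and 1167 lower (7.43%). The split was 1561 higher to 493 lower with library totals in place of TMM factors, and 1294 to 676 without the low-count filter. Only Mt1 had every KO library below every WT library, as did 7.22% of tested genes, and none had every KO library above, as did 7.38%. With the KO counts summed, none of the 6 genes passed, against 7 of all tested genes (0.0446%). Mt1 also did not pass in 2 of the other alternatives, 1 of them the fit without the low-count filter, and Slc39a14 did not pass with library totals, without any 1 of the 5 KO libraries, or without WT replicate 5. Because the genes were chosen from this contrast, their counts carry no weight as a test. The median log2 difference of the 6 genes was -0.30, and that of all tested genes was -0.02.

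**Figure D2:**
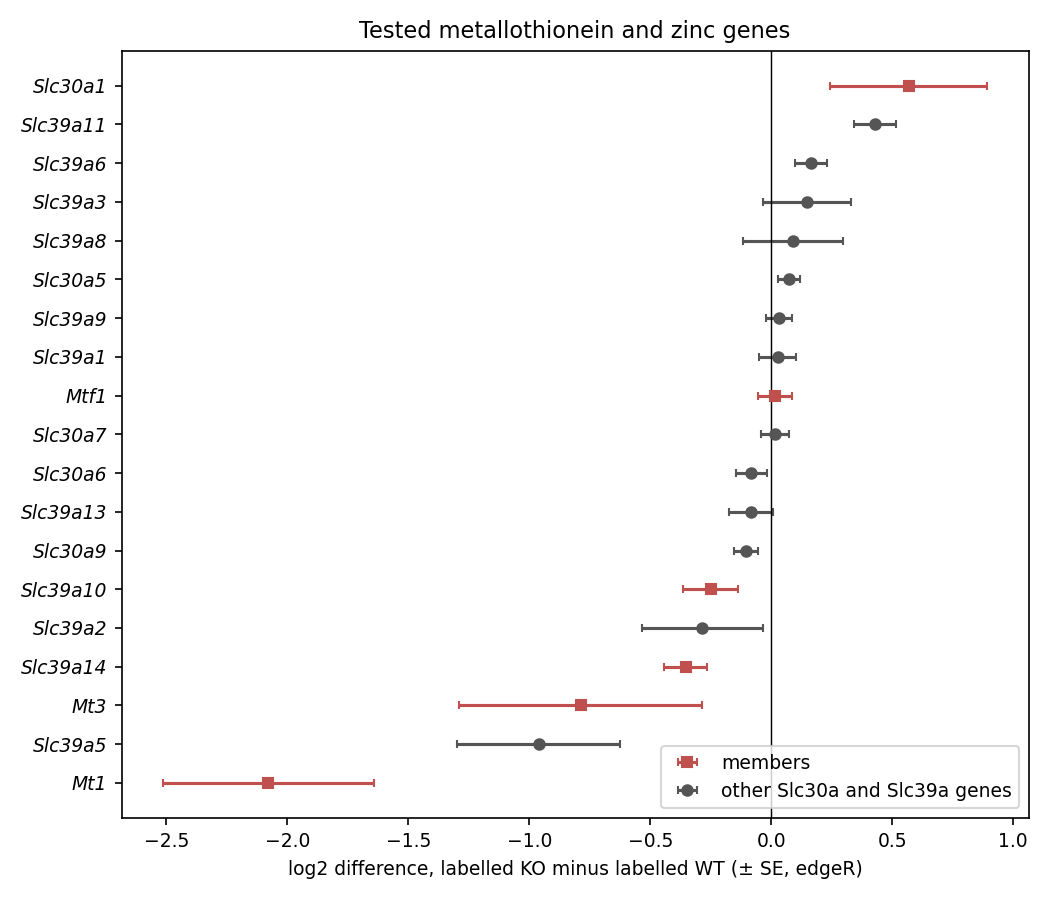
Log2 difference, KO minus WT, with its SE (edgeR, 5 libraries per group) for the 6 fitted genes (red squares) and the 13 other tested Slc30a and Slc39a genes (grey circles). Mt1 lies at -2.08, and the other zinc transporters lie between -0.96 (Slc39a5) and 0.43 (Slc39a11) around a median of 0.03. Slc39a5 had only 6 to 12 counts in KO and 10 to 26 in WT.

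The rest of the zinc transporter families was examined as whole families. The tables hold 21 further genes, 9 of Slc30a and 12 of Slc39a, of which 13 were tested. Of these 1 of 13 was higher in KO, Slc39a11, a share close to the 6.84% of all tested genes, and 0 were lower in the edgeR test, against 7.43%, where 2 were higher and 1 lower at an unadjusted p under 0.05. DESeq2 gave the same counts. Slc39a11 encodes ZIP11, an importer placed mostly in intracellular membranes. It had 8.05 ± 0.172 CPM in KO and 5.97 ± 0.532 CPM in WT (SD, n = 5 each), with every KO library above every WT library. KO exceeded WT by 0.43 on the log2 scale (SE 0.09, edgeR adjusted p = 0.00799), a ratio of 1.35 with a 95% interval of 1.18 to 1.54. The call was kept in the 16 alternatives that did not sum the KO libraries, with adjusted p up to 0.0377. With the KO counts summed it was lost (adjusted p = 0.999, 95% interval of the ratio 0.96 to 1.88). Without WT replicate 2 the count rose to 3, with Slc39a13 and Slc39a5 lower. Slc39a5 was low in all libraries, with 6 to 12 counts in KO and 10 to 26 in WT.

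The most abundant other transporters did not pass (edgeR adjusted p 0.178 to 0.860). Slc39a1, which encodes ZIP1, a surface importer found in most tissues, had 129 ± 2.11 CPM in KO and 127 ± 16.3 CPM in WT (log2 difference 0.03, SE 0.08). Slc39a13, which encodes ZIP13 and is known for a connective tissue disorder when lost, had 61.8 ± 2.23 and 65.5 ± 9.54 CPM (log2 difference -0.08, SE 0.09). Slc39a3 had 33.7 ± 1.38 and 30.4 ± 8.61 CPM. Among the exporters of internal compartments, Slc30a5 had 55.8 ± 1.11 and 53.1 ± 2.63 CPM and Slc30a6 18.8 ± 0.847 and 19.9 ± 1.32 CPM. Slc30a9, a mitochondrial transporter, had 91.2 ± 1.88 and 98.0 ± 5.97 CPM (SD, n = 5 in each case). The 8 transporters not tested had at most 11 counts in any library. They include Slc39a7, with 4 to 11 counts, of whose exon bases 80.7% lie under the gene Gm20427.

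Per kilobase of exon, Mt1 was the first of these 28 genes. Its level was 188 CPM per kb in KO and 794 in WT (271 to 1519 over the 5 libraries). Slc39a1 was 2nd, with 54.7 and 53.7 CPM per kb, and did not reach the lowest Mt1 value. Slc39a14 was 4th, at 9.52 and 12.2 CPM per kb, next to Slc39a13 at 12.7 and 13.4, and their WT ranges overlapped. Slc39a10 was 12th at 2.57 and 3.05 CPM per kb. Mtf1 was 14th at 1.97 and 1.95 CPM per kb. Mt3 was 16th, Slc30a1 19th at 0.141 and 0.0958 CPM per kb, and Mt2 23rd. GENCODE counts all 1246 bases of the Mt1 gene as exon because 1 of its transcripts is unspliced, while Mt2 has 588 exon bases in 3 exons.

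**Figure D3:**
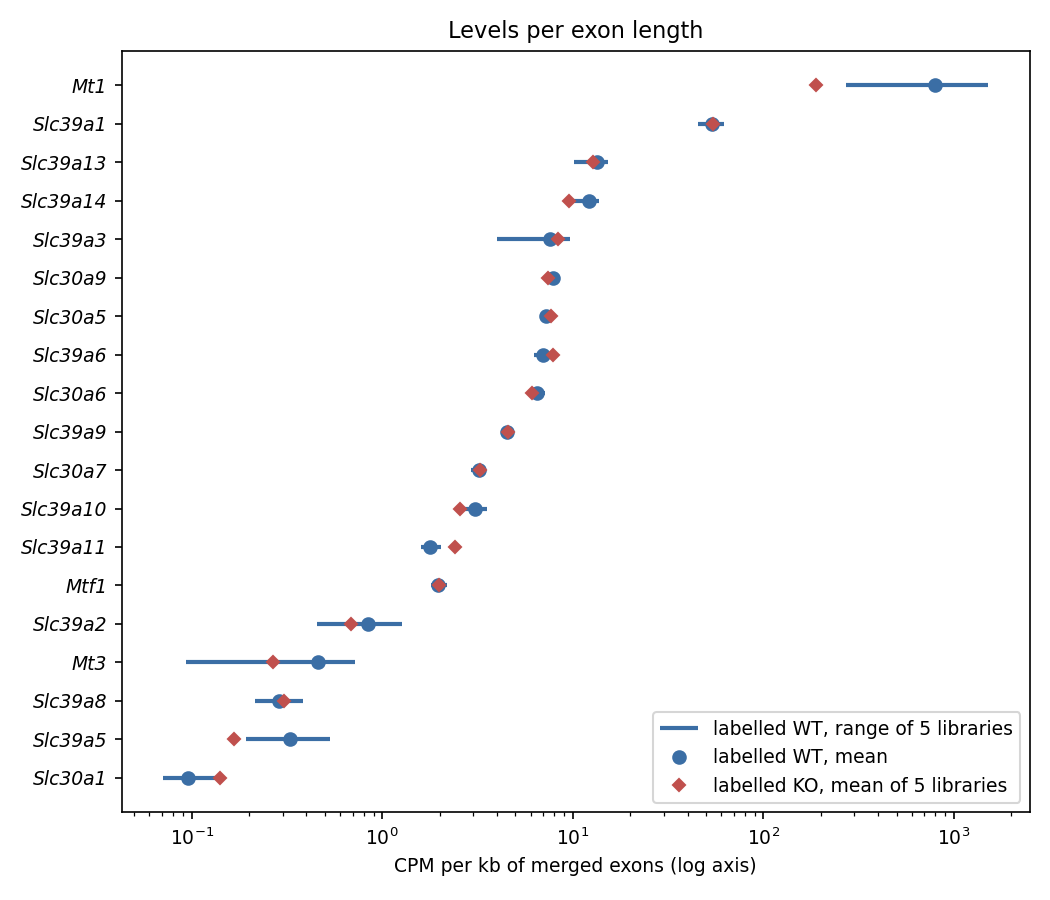
Level per kilobase of merged exon (CPM per kb, log axis) of the tested metallothionein and zinc genes: WT mean (blue circle) with the range of the 5 WT libraries (blue line) and KO mean of 5 libraries (red diamond). Mt1 lies highest, at 188 CPM per kb in KO and 794 in WT, and Slc30a1 lowest, at 0.141 and 0.0958 CPM per kb.

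By the measure used, the 5 genes closest to Mt1 in profile came from outside zinc handling. Likeness was the root mean square difference of log2 CPM, centred on the mean, over 6 points, which were the 5 WT libraries and the mean of the KO libraries. Of 12630 genes ranked, the nearest were Ctla2b (0.35), Ccl9 (0.37), Nr4a3 (0.40), Itgam (0.40) and Plac8 (0.40). Ctla2b is a relative of cathepsin propeptides, Ccl9 is a chemokine, and Nr4a3 is a nuclear receptor induced early after stimulation. Itgam encodes an integrin chain of myeloid cells, and Plac8 is expressed in myeloid cells and other tissues. Ccl9 had 17.2 to 19.3 CPM in KO and 14.7, 97.3, 14.9, 90.7 and 80.6 CPM in WT. Unlike Mt1, it was not lower in KO than in WT replicates 1 and 3. Ctla2b, Itgam and Plac8 also overlapped between KO and WT. Of the 5 genes only Nr4a3 had every KO library below every WT library, at 17.1 to 18.0 against 25.7 to 189 CPM. The log2 values were centred but not scaled, so a gene with a small spread is held apart from Mt1 whatever its order of libraries. The SD in WT was 1.12 for Mt1, 0.23 for Slc39a14 and 0.27 for Slc39a10. Mt2, Mt3 and Slc30a1 were below the level needed to be ranked. Of the zinc genes that were ranked, Slc39a10 (0.91) had 476 genes nearer to Mt1, Slc39a14 (0.92) had 540 and Mtf1 (1.09) had 4032. These values are a description over libraries that also share differences in cell content, given next.

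**Figure D4:**
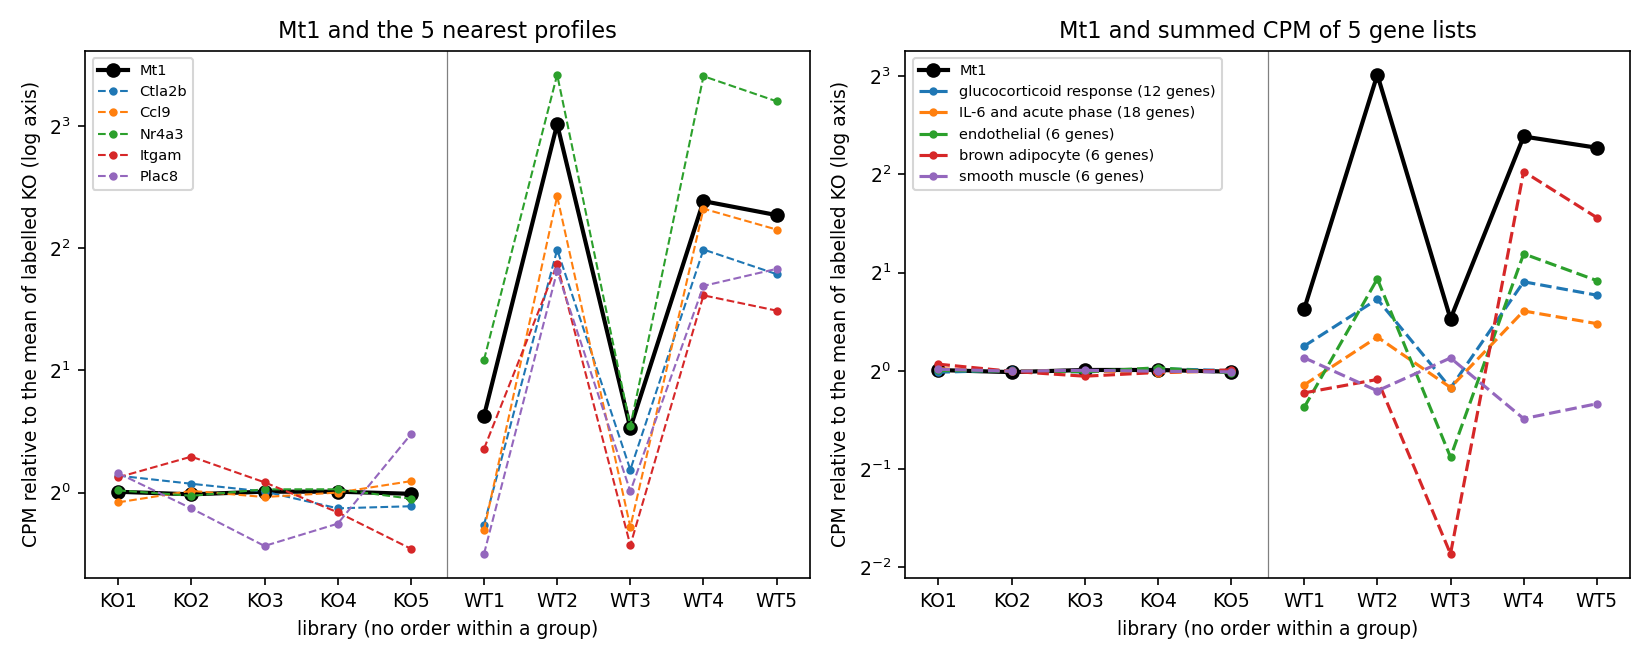
CPM of each library relative to the mean of the 5 KO libraries (log axis): left, Mt1 and the 5 genes nearest to it in profile, right, Mt1 and the summed CPM of 5 gene lists. Mt1 is near 1 in all KO libraries and at 1.55, 8.08, 1.44, 5.22 and 4.83 in WT replicates 1 to 5. Within WT the endothelial, glucocorticoid, interleukin 6 and brown adipocyte sums are also highest in replicates 2, 4 and 5. The smooth muscle sum is lowest there.

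Markers of other cell types differed between the libraries. Several of their sums set WT replicates 2, 4 and 5, which had the most Mt1 in WT, apart from WT replicates 1 and 3. The 6 endothelial markers (Pecam1, Cdh5, Vwf, Kdr, Tie1 and Emcn) summed to 259 to 268 CPM in KO and to 203, 502, 143, 599 and 496 CPM in WT replicates 1 to 5. The 6 white adipocyte markers, such as Adipoq, summed to 583 to 610 CPM in KO and to 459, 663, 369, 1638 and 1249 CPM in WT. The 6 brown adipocyte markers, such as Ucp1, summed to 183 to 199 CPM in KO and to 163, 179, 52.2, 776 and 561 CPM in WT. Both adipocyte sums were highest in WT replicates 4 and 5, while WT replicate 2, with the most Mt1, had a lower brown adipocyte sum than any KO library. The smooth muscle markers went the other way in WT, at 38742, 30678, 38692, 25210 and 28007 CPM. All 6 markers of each of these lists had more than 3 counts in at least 1 library. The 3 WT libraries with the most Mt1 thus had the highest endothelial and adipocyte sums in WT and the lowest smooth muscle sums. The KO libraries lay between the WT libraries in these 4 sums. They lay wholly above WT in the fibroblast sum, with 2579 to 2625 against 1986 to 2324 CPM, and in the nerve and Schwann cell sum, with 39.6 to 43.5 against 15.01 to 22.5 CPM. Macrophage markers summed to 171 to 180 CPM in KO and 113 to 229 CPM in WT. Red cell markers summed to 19.2 to 21.3 CPM in KO and 65.8 to 327 CPM in WT, and lymphocyte markers to 179 to 182 CPM in KO and 6.39 to 15.8 CPM in WT. In WT replicates 1 to 5 the macrophage sums were 113, 229, 133, 156 and 159 CPM. The fibroblast sums there were 1986, 2324, 2134, 2181 and 2196 CPM. Within WT the macrophage, fibroblast and lymphocyte sums were thus also highest in replicates 2, 4 and 5. The red cell sum and the nerve and Schwann cell sum were not. The part of cell content, of the mitochondrial share and of the near copies among the KO libraries in the Mt1 difference was not tested.

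With all 10 libraries, genes of pathways known to induce Mt1 gave more calls lower than higher in KO. These lists, like those that follow, were chosen with earlier results of these data known. Their calls are therefore a description and carry no weight as a test. Of 12 glucocorticoid response genes, 1 was higher in KO and 3 were lower, with a median log2 difference of -0.23. Of all tested genes, 6.84% were higher and 7.43% lower. At an unadjusted p under 0.05 in edgeR, 1 of the 12 was higher and 5 were lower. The share of all tested genes at that threshold is not given here, so no excess is read from it. The receptor Nr3c1 was higher (0.22, SE 0.05, edgeR adjusted p = 0.0145). Lower were Cdkn1a, a cell cycle inhibitor (-1.16, SE 0.14, adjusted p = 0.000518), Errfi1, an inhibitor of EGF receptor signalling (-1.19, SE 0.29, adjusted p = 0.0239), and the receptor chaperone Fkbp5 (-1.10, SE 0.27, adjusted p = 0.0246). Fkbp5 had 163 to 177 CPM in KO and 205, 591, 196, 422 and 414 CPM in WT, the same order of WT libraries as Mt1. The sum of the glucocorticoid list was 1616 to 1657 CPM in KO and 1943, 2705, 1445, 3058 and 2783 CPM in WT. The lean of the calls depended on the setting. It was 1 higher to 1 lower without any 1 KO library, without the low-count filter, or without WT replicate 5. Without WT replicates 1 and 3 it was 1 higher to 7 lower.

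Of 17 tested genes of interleukin 6 signalling and the acute phase, 1 was higher and 3 were lower, with a median of -0.37. Of all tested genes, 6.84% were higher and 7.43% lower. At an unadjusted p under 0.05 in edgeR, 1 of the 17 was higher and 9 were lower. Here too the share of all tested genes at that threshold is not given. The transcription factor Cebpb was lower (-1.33, SE 0.18, edgeR adjusted p = 0.00109), as were the receptors Osmr (-0.73, SE 0.21, adjusted p = 0.0454) and Lifr (-0.48, SE 0.14, adjusted p = 0.0462). The metalloreductase Steap4 was higher (0.49, SE 0.13, adjusted p = 0.0335). The ligand gene Il6 was not tested because of low counts. For this list the calls were 1 higher to 1 lower with library totals or without WT replicate 2 or 5. They were 2 higher to 1 lower without WT replicate 4, and 1 higher to 14 lower without WT replicates 1 and 3. Of 15 immediate early genes, Nr4a3 (-2.77, SE 0.53, adjusted p = 0.00825), Myc (-1.01, SE 0.30, adjusted p = 0.0447) and Ier2 (-0.54, SE 0.10, adjusted p = 0.00624) were lower. Ier3 was higher (0.27, SE 0.08, adjusted p = 0.0433), and the median was 0.05.

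Genes that handle copper and iron, metals that metallothioneins or ZIP14 also bind or carry, gave calls in both directions. Over all tested genes the shares called were 6.84% higher and 7.43% lower. Of 12 tested copper genes, the chaperone Atox1 was lower, at 38.7 ± 1.59 against 47.1 ± 4.11 CPM (log2 difference -0.28, SE 0.06, edgeR adjusted p = 0.0132). Steap4, counted here as well, was the only copper gene that was higher. Sod1, the copper and zinc superoxide dismutase, had 185 ± 2.32 and 203 ± 18.5 CPM and did not pass, and neither did its copper chaperone Ccs. Of 10 tested iron genes, 3 were higher: Ncoa4, the receptor for ferritin breakdown (0.45, SE 0.07, adjusted p = 0.00263), the iron exporter Slc40a1 (0.93, SE 0.22, adjusted p = 0.0182) and the transferrin receptor Tfrc (0.24, SE 0.06, adjusted p = 0.0268). The mitochondrial iron importer Slc25a37 was lower (-0.17, SE 0.04, adjusted p = 0.0287). Of the other zinc genes, the zinc receptor Gpr39 and the zinc chaperone gene Cbwd1 were tested and did not pass in edgeR, where 0 of them were at an unadjusted p under 0.05, nor in DESeq2.

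In the 6 lists of glucocorticoid, interleukin 6, immediate early, copper, iron and other zinc genes, 17 of 67 tested genes passed, 6 higher and 11 lower. Of all tested genes 14.3% passed. Because the lists were chosen with earlier results of these data known, the 2 shares do not make a test. With library totals the split was 7 higher and 6 lower. With the KO counts summed 0 of the 67 passed in edgeR, with 3 at an unadjusted p under 0.05. Cdkn1a, Cebpb, Ier2, Ncoa4 and Nr4a3 passed in each of the 16 alternatives that did not sum the KO libraries. With any 1 KO library left out the count of calls was 7 or 8, and without WT replicate 5 the count was 11. Slc40a1 was lost in 2 of those 16 alternatives, and Atox1 and Nr3c1 in 1 each. The calls of Errfi1, Fkbp5, Lifr, Osmr, Myc, Ier3, Steap4, Tfrc and Slc25a37 were each lost in 6 to 11, and with all 10 libraries their adjusted p lay between 0.0239 and 0.0462.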

How the data were processed

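RNA of 5 libraries labelled KO and 5 labelled WT, grouped by their titles, was sequenced. Each deposited file gives raw counts of reads for every gene, per the file headers. Per the submitters' processing notes, Bowtie 0.12.2 is named, and both mm8 and mm9 are listed as builds without saying for what. Counting tool, annotation and strand setting: not given in the sources used here. Coordinates come from GENCODE M21 (GRCm38), which matched 35519 of 35667 identifiers, and promoter windows from RefSeq (GRCm38.p6), by symbol.

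Counts were fitted in R 4.3.3 with edgeR 4.0.16 (quasi-likelihood F test), using TMM factors, filterByExpr (minimum count 10, minimum total 15) and robust estimation. P-values were adjusted by Benjamini-Hochberg over all tested genes, with a threshold of 0.05. Counts of list genes at an unadjusted p under 0.05 are given without the share of all tested genes at that threshold. No excess is read from them. Each SE is the absolute log2 difference over the square root of its F value. Agreement of libraries was computed over genes averaging 50 or more counts. Counting limits cover counting error only. The fit was tested on simulated counts with the same spread in both groups. The KO and WT libraries differ in spread, so that test does not cover them.

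The 7 genes and all lists were chosen with earlier results of these data known. Named besides them were transporters past the threshold and the 3 most abundant per kilobase of each family, up to 4 genes of smallest p per other list, the 5 nearest to Mt1 among genes averaging 1 or more in log2 CPM, and Ovgp1. Slc39a5, Slc39a6, Slc39a7 and Gm20427 were named after their values were seen. Mt4 was not analysed here.

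Alternatives were DESeq2 size factors, library totals, no filter, DESeq2 1.42.0, a replicate block, the KO counts summed, leaving out WT replicates 1 and 3, and leaving out each library.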

Additional observations from a re-analysis of the deposited data

Results flagged for a closer look

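In each group of 5 libraries, a library was noted when its gap to the nearest other exceeded 0.71 of the range (Dixon's 95% limit). Chance gives about 1 such case in 20 groups. Of 69 groups examined over 35 genes, 7 were noted. Among the 7 zinc genes it was Slc39a14 alone, where KO replicate 5 was highest at 102 CPM, with the other KO libraries at 99.6 to 100.4 CPM. That gap is small beside the difference from WT.

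Of the other genes, Cbwd1 was highest in KO replicate 2 at 11.5 CPM. Cebpb was highest in KO replicate 3 at 2.55 CPM. Errfi1 was highest in KO replicate 2 at 188 CPM. Ier3 was highest in KO replicate 3 at 35.7 CPM. Nr3c1 was lowest in WT replicate 4 at 92.3 CPM. Sod1 was highest in WT replicate 2 at 235 CPM, with the others at 187 to 198 CPM.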

How the results depend on the processing

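All 102 values of the 6 fitted zinc genes under the alternatives differed from the main fit by less than the SD of log2 CPM among the WT libraries. That limit is wide for Mt1 (1.12) and Mt3 (0.95), and for Mt3 it exceeds the difference itself (-0.79), so staying within it says little. No called gene changed sign. Leaving out each library gave log2 differences of -2.30 to -1.69 for Mt1, -1.03 to -0.56 for Mt3, -0.01 to 0.06 for Mtf1, 0.37 to 0.75 for Slc30a1, -0.31 to -0.18 for Slc39a10 and -0.43 to -0.31 for Slc39a14. Under the other alternatives Mt1 ran from -2.58 to -1.78.

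The count of genes passing (2242) was 1319 with the replicate block, 7 with the KO counts summed and 4386 without WT replicates 1 and 3. It was 1287 to 2678 with 1 library left out, and 1287 to 1393 when that library was labelled KO. For the other zinc transporters (1) it was 2 with library totals, adding Slc39a6, 0 with the KO counts summed, where none of the 13 was at an unadjusted p under 0.05, 2 without WT replicates 1 and 3, and 1 to 3 with 1 library left out. For the 6 other lists (17) it was 10 without the filter, 7 with the replicate block, 0 with the KO counts summed, 35 without WT replicates 1 and 3, and 7 to 22 with 1 library left out. The causes were not tested.

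Whether the replicate numbers pair the libraries was not settled. Over 5446 genes, deviations of KO and WT libraries with the same number correlated at -0.02, 0.17, 0.12, 0.07 and -0.05, and 3 of 5 KO libraries correlated best with their own number. The KO libraries were close to copies of each other, so they deviate too little for this check to decide it. With the block, the zinc transporter count was 1 and the log2 difference of Mt1 was -1.78, no longer past the threshold.

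Depth limits Mt2, Mt3 and Slc30a1, with at most 3, 18 and 30 counts per library. For the lone summed KO sample, a spread like that of WT is assumed.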
